A study of Mus musculus with 16 samples.

Results

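The late step of tenogenic induction, from day 6 (T6) to day 9 (T9) of TGF-β2 treatment, was examined in 2296 single cells from 6 plates of 384 wells, out of 4594 cells on 12 plates in the whole series. The plates were taken by their time point labels, 3 for T6 (1149 cells) and 3 for T9 (1147 cells), and wells with at least 200 detected genes were kept, which left out 8 of 2304 wells. The cells were mesodermal cells induced from a single clone of induced pluripotent stem cells that carry the *ScxGFP* transgene, a reporter driven by the regulatory region of *Scx*. T6 and T9 cells received 10 ng/ml recombinant human TGF-β2 in DMEM-F12 with 1% FBS, L-glutamate, and an insulin, transferrin, and selenite supplement, so that they differ by 3 further days of the same treatment, and there was no untreated culture of the same age among the samples used here. T0 cells had no TGF-β2 and T3 cells had 3 days of it. Live single cells were sorted into the plates, and each captured mRNA molecule was counted once through its unique molecular identifier (UMI). A separate readout came from bulk RNA of Achilles tendons at 14 days of age, from 2 wild-type samples (Scx_Wt) and 2 samples of *Scx* knockout mice (Scx_KO).

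Tendon cells arise from mesenchymal progenitors that switch on *Scx*, a bHLH transcription factor, and later build a matrix of type I collagen fibrils whose width and spacing are set by small leucine-rich proteoglycans. TGF-β signals through receptor kinases and Smad proteins, and raises the expression of *Scx* and of many matrix genes in limb mesenchyme. *Mkx* and *Egr1* are further transcription factors of tendon, and *Tnmd* encodes a membrane glycoprotein of maturing tenocytes.

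The plates of T6 and T9 held between 3015418 and 4204037 UMIs, with a median of 2032 to 3406 detected genes per cell. They fell into 2 library types. Mitochondrially encoded genes gave 10.9% and 12.3% of the UMIs of T6-1 and T6-3 and 9.28% of T9-3, but 26.3% in T6-2, 25.2% in T9-1, and 27.0% in T9-2. *Malat1*, a nuclear noncoding RNA, stood at 6274 to 7539 CPM (UMIs per 1000000 UMIs of the plate) in the plates with the low mitochondrial share and at 1386 to 1594 CPM in the others. In a fit with time point and library type, 33.9% of the 13372 genes tested differed between the library types. Since 1 of 3 plates was of the high type at T6 and 2 of 3 at T9, the value with library type as a second term is given beside the genes the results turn on. Every gene described as rising or falling was also called, in the same direction, with that term. Nothing in the labels says that plates came from separate cultures, so that p-values measure the spread between plates, which may be technical. The median log2 level in CPM of the genes tested was lower at T9 by 0.22, and fitted fold changes are relative to this shift. A sum over cells cannot tell fewer cells that express a gene from less RNA per cell.

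Markers of tendon cells were present at both time points, and those of endothelial, blood, and pluripotent cells summed to far lower levels. The 14 tendon markers summed to between 11434 and 25769 CPM at T6 and between 14722 and 42296 CPM at T9. This sum includes the type I collagen genes *Col1a1* and *Col1a2*, which were at far higher levels than *Scx*, *Tnmd*, or *Mkx*. *Col1a1* had a UMI in 100% of the 24 cells with at least 3 pluripotent markers and in 99.9% of the others. The sum therefore does not by itself mark tendon cells. The 10 endothelial markers summed to between 63.0 and 101 CPM at T6 and between 54.9 and 112 CPM at T9. Of them, *Kdr*, *Erg*, and *Egfl7* reached the level to be tested. *Cdh5* had 1 UMI at T6 and 0 at T9, *Vwf* 4 and 0, and *Tie1* 0 at both, whereas *Pecam1* had 4 and 14. The blood and immune markers summed to between 3.50 and 9.47 CPM at T6 and between 5.14 and 10.6 CPM at T9. *Ptprc* had 5 UMIs at T6 and 1 at T9, *Lyz2* 5 and 13, and *Hba-a1* had 0. The 10 pluripotent markers, of which 8 were tested, summed to 153 CPM in T6-1, 12.1 CPM in T6-2, and 20.5 CPM in T6-3. They summed to 175, 324, and 1.99 CPM in T9-1, T9-2, and T9-3. They varied more between plates of a time point than between the time points, and their part in the results below was not tested beyond leaving out the cells that carried them.

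From T6 to T9, 125 genes rose and 92 fell at a Benjamini-Hochberg adjusted p of 0.05 in the quasi-likelihood test of edgeR over all 12 plates, which is 0.935% and 0.688% of the 13372 genes tested. Among the genes with the largest rise were *Ccn3*, *Itgbl1*, *Igfbp7*, and *Cav1*, whereas *Prokr2*, *St8sia2*, *Hmga2*, and *Scx* were among those that fell. The change exceeded 1 on the log2 scale for 103 of the genes that rose and for 60 of those that fell. In 199 of the 217 genes called, the plates of T9 did not overlap those of T6, against 15.7% of all genes tested. With library type as a second term, 446 genes (3.34%) rose and 367 (2.74%) fell, among them the 217 genes in the same direction. The shares of all genes tested, without and with library type, are the background for the counts of each list below. With equal weight for each cell (the mean of per-cell CPM, tested with limma without centring on the median gene), 44 rose and 89 fell. The fold change had the same sign within each library type for all 217 genes. Many of the calls were lost when a plate was left out, whichever of T6-1, T6-3, T9-1, and T9-2 it was. Of the 217 genes, 48 were still called without T6-1, 44 without T6-3, 35 without T9-1, and 68 without T9-2. Without T6-2, 203 were still called, and without T9-3, 209. All 217 kept their sign in these 6 fits, and 31 genes were called in each of them, 21 of which rose. With library type in the fit, 136 of the 217 were called whichever plate was left out. In a fit on only the 6 plates of this step, 36 genes rose and 9 fell. Of the genes named below as losing their call without a plate, *Col15a1*, *C1s1*, *Htra3*, and *Rbp4* were called in that fit and the others were not. These are the same plates that chose the genes, so that the signs are a description.

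**Figure D1:**
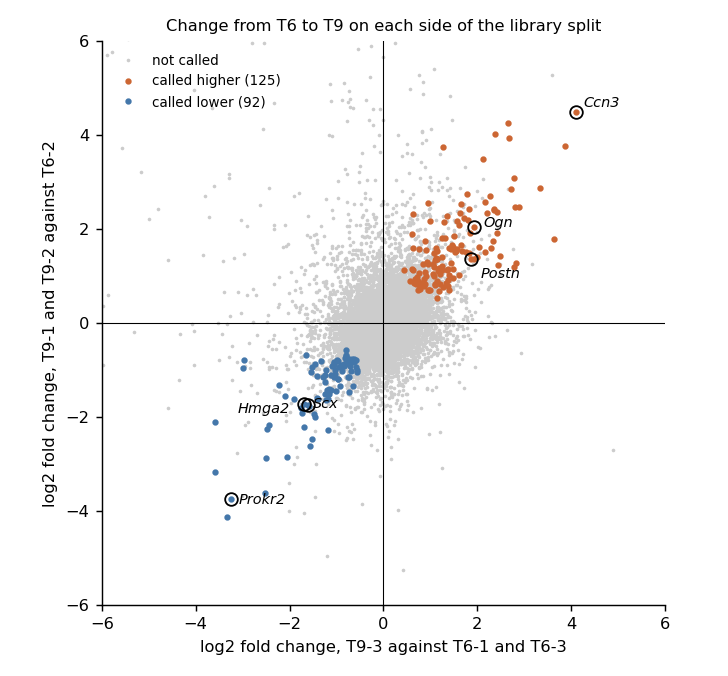
Log2 fold change from T6 to T9 in the plates with the low mitochondrial share (x axis, T9-3 against T6-1 and T6-3) and in those with the high share (y axis, T9-1 and T9-2 against T6-2), with 1 point per gene, orange for the 125 genes that rose, blue for the 92 that fell, and grey for the others. The coloured points lie in the upper right and lower left quadrants, and 79 genes beyond 6 on either axis and 913 with no value in 1 of the library types are not drawn.

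*Scx* fell over this step, while the other tendon transcription factors did not pass the test. *Scx* (chr15:76457452-76459458, plus strand, inside *Bop1* in GRCm38) was at 622, 594, and 476 CPM in T6-1, T6-2, and T6-3 and at 211, 117, and 160 CPM in T9-1, T9-2, and T9-3. All plates of T9 lay below all plates of T6. The log2 fold change was -1.55 ± 0.28 (SE, n = 3 plates a group, edgeR, adjusted p = 0.0146) and -1.70 with library type in the fit (adjusted p = 5.9e-05). The call was lost without T6-1 (adjusted p = 0.0594) and without T9-2 (adjusted p = 0.0711), with log2 fold changes of -1.54 and -1.39, and in the fit on only the 6 plates (-1.55, adjusted p = 0.11). *Mkx* was at 16.6, 22.9, and 13.1 CPM at T6 and at 33.9, 28.3, and 27.2 CPM at T9, which do not overlap, but its log2 fold change of 1.01 ± 0.33 did not pass (adjusted p = 0.150). It passed with library type in the fit (0.77, adjusted p = 0.041), with no filter on low counts (0.99), without T6-2 (1.41, adjusted p = 0.029), and without T9-3 (1.23, adjusted p = 0.0463). *Egr1* stood between 1240 and 1729 CPM at T6 and between 1056 and 1669 CPM at T9, with a log2 fold change of 0.04 ± 0.19 (adjusted p = 0.934).

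The late tendon genes did not pass the test either. *Tnmd* was at 94.4, 76.7, and 35.0 CPM at T6 and at 147, 100, and 72.0 CPM at T9, and the time points overlapped (log2 fold change 0.92 ± 0.40, adjusted p = 0.295). *Col1a1*, the main chain of type I collagen, was at 11625, 4500, and 11174 CPM at T6 and at 8273, 5768, and 20730 CPM at T9. T9-3 was above T6-1 and T6-3, and T9-1 and T9-2 were above T6-2, but the time points overlapped across library types. Its log2 fold change was 0.55 ± 0.37 (adjusted p = 0.49), and 0.82 with library type in the fit (adjusted p = 0.011). *Col1a2*, the other chain, gave 0.66 ± 0.29 (adjusted p = 0.28) and 0.88 with library type (adjusted p = 0.003). Of the 14 tendon markers, 0 rose and 1 (*Scx*) fell, and with library type 7 rose and 1 fell. Their median log2 fold change was 0.52, against -0.01 for all genes tested.

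Small leucine-rich proteoglycans were among the matrix genes that rose. *Ogn* (osteoglycin), *Dcn* (decorin), *Lum* (lumican), and *Aspn* (asporin) bind collagen and shape its fibrils, and these 4 were the called members among 14 tested of the list of proteoglycans and hyaluronan enzymes, with 0 that fell (6 and 1 with library type). The median of the list was 0.65, against -0.01 for all genes tested. *Bgn* (biglycan, 0.91 ± 0.23, adjusted p = 0.0702, with library type 0.93, adjusted p = 0.0047) and *Fmod* (fibromodulin, 0.49 ± 0.25, adjusted p = 0.351, with library type 0.60, adjusted p = 0.0499), of the same family, did not pass and are named after their values were seen. *Ogn* was at 139, 139, and 105 CPM at T6 and at 551, 493, and 437 CPM at T9. *Dcn* was at 1124, 889, and 1156 CPM at T6 and at 2492, 2445, and 2808 CPM at T9. Every plate of T9 lay above every plate of T6 for both genes, whatever its library type. The log2 fold change was 2.2 ± 0.30 for *Ogn* (adjusted p = 0.00287, with library type 1.98, adjusted p = 6.4e-06) and 1.54 ± 0.24 for *Dcn* (adjusted p = 0.00783, with library type 1.44, adjusted p = 6.7e-05). Both were called whichever plate was left out.

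*Lum* was at 313, 331, and 322 CPM at T6 and at 843, 857, and 631 CPM at T9. *Aspn* was at 144, 164, and 151 CPM at T6 and at 284, 273, and 309 CPM at T9. The plates of T6 were close to each other in both genes, and those of T9 all lay above them. *Lum* changed by 1.54 ± 0.28 on the log2 scale (adjusted p = 0.0174, with library type 1.25, adjusted p = 6.7e-05) and *Aspn* by 1.14 ± 0.23 (adjusted p = 0.0277, with library type 1.02, adjusted p = 0.00046). The call of *Lum* was lost without T6-1, T6-3, T9-1, or T9-2 (adjusted p between 0.067 and 0.0988), and so was that of *Aspn* (adjusted p between 0.0826 and 0.15). *Dcn* (chr10:97479609-97518143) and *Lum* (chr10:97565128-97572703) are neighbours in GRCm38, as are *Aspn* (chr13:49544443-49567565) and *Ogn* (chr13:49608046-49624501). *Aspn* shares exon bases with *Cenpp* on the opposite strand, which was at 11.3 CPM on average, and whether the counting used strand is not given in the sources used here.

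Matricellular proteins, which sit in the matrix and modulate how cells adhere to it, had the most genes that rose by count. Of 19 tested, 5 rose (*Ccn3*, *Thbs2*, *Postn*, *Ccn2*, and *Thbs1*) and 0 fell, with a median log2 fold change of 0.79 (11 rose and 1 fell with library type). Over all genes tested, 0.935% rose, and 3.34% with library type. The smaller proteoglycan list above had 4 of 14. *Ccn3*, a secreted CCN family protein, was at 5.89, 2.86, and 2.85 CPM at T6 and at 71.7, 47.2, and 70.3 CPM at T9. It changed the most of the genes that the naming rule gave, by 4.28 ± 0.35 on the log2 scale (adjusted p = 0.00022, with library type 4.22, adjusted p = 3.6e-06). *Postn* (periostin), which takes part in collagen assembly, was at 601, 546, and 525 CPM at T6 and at 1451, 1100, and 1940 CPM at T9. *Thbs2*, a thrombospondin, was at 240, 215, and 245 CPM at T6 and at 579, 470, and 910 CPM at T9. *Ccn2*, another CCN protein and a known TGF-β target, was at 177, 118, and 149 CPM at T6 and at 235, 292, and 414 CPM at T9. None of these 4 genes overlapped between the time points, and T9-3 was the highest plate in the last 3. The log2 fold changes were 1.63 ± 0.21 for *Postn* (adjusted p = 0.00189), 1.68 ± 0.20 for *Thbs2* (adjusted p = 0.00167), and 1.31 ± 0.17 for *Ccn2* (adjusted p = 0.00203), and all 4 genes were called whichever plate was left out. *Thbs1* was at 348, 190, and 280 CPM at T6 and at 420, 356, and 824 CPM at T9 (1.17 ± 0.27, adjusted p = 0.0444, with library type 1.26, adjusted p = 0.0015), and its call was lost without each plate other than T9-3 (adjusted p between 0.0507 and 0.173).

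**Figure D2:**
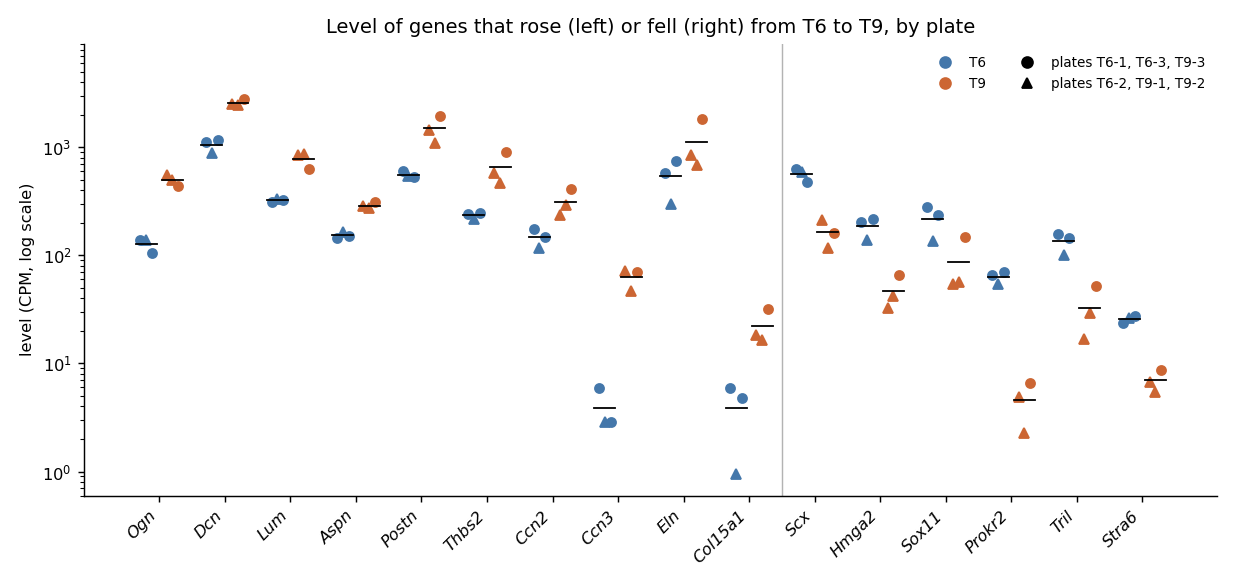
Level in CPM (log scale) of 10 genes that rose and 6 that fell, with 1 point per plate, blue for T6 and orange for T9, circles for the plates with the low mitochondrial share and triangles for those with the high share, and a line at the mean of 3 plates. The points of T6 and T9 are apart except for *Eln* and *Sox11*.

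*Eln*, *Mfap5*, *Col6a1*, and *Col6a2* rose, but no fibrillar collagen passed the test with time point as the only term. With library type in the fit, 6 of 9 fibrillar collagens and 4 of 16 elastic fibre genes rose. *Eln* (elastin) was at 574, 296, and 752 CPM at T6 and at 853, 690, and 1803 CPM at T9, so that T9-2 fell below T6-3. The log2 fold change was 1.26 ± 0.29 (adjusted p = 0.0479) and 1.47 with library type (adjusted p = 5.9e-05), and the call was lost without each plate other than T9-3 (adjusted p between 0.0515 and 0.166). *Mfap5*, a glycoprotein of elastic microfibrils, was at 7.42, 12.4, and 13.6 CPM at T6 and at 65.2, 56.8, and 35.2 CPM at T9. It changed by 2.53 ± 0.37 on the log2 scale (adjusted p = 0.00446) and was called whichever plate was left out, but not in the fit on only the 6 plates (adjusted p = 0.0515). These were 2 of the 16 elastic fibre genes tested, of which 0 fell (median 0.42), and with library type 4 rose.

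Of 17 other collagens tested, *Col15a1*, *Col6a1*, and *Col6a2* rose and 0 fell (median 0.32, 5 and 1 with library type). *Col15a1*, a collagen at basement membranes, was at 5.89, 0.955, and 4.76 CPM at T6 and at 18.2, 16.4, and 31.8 CPM at T9 (2.73 ± 0.46, adjusted p = 0.0146). All plates of T9 lay above those of T6, and the call was lost without T6-3 (adjusted p = 0.0608) or T9-1 (adjusted p = 0.0749). *Col6a1* was at 1129, 594, and 1117 CPM at T6 and at 1335, 1147, and 2230 CPM at T9 (0.97 ± 0.23, adjusted p = 0.0495, with library type 1.11, adjusted p = 0.00012). *Col6a2* gave 1.05 ± 0.24 (adjusted p = 0.0437, with library type 1.19, adjusted p = 0.00021), with T9-2 at 872 CPM below T6-1 at 908 CPM. The calls of *Col6a1* and *Col6a2* were lost without T9-1 or any plate of T6 (adjusted p between 0.0509 and 0.184), and that of *Col6a1* also without T9-2 (adjusted p = 0.0739). No other collagen VI gene was called.

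Among 9 fibrillar collagens tested, 0 rose and 0 fell, and with library type 6 rose and 1 fell (median 0.55). *Col3a1*, which forms thin fibrils, was at 7099, 5268, and 7778 CPM at T6 and at 9721, 7401, and 11433 CPM at T9 (0.75 ± 0.23, adjusted p = 0.12, with library type 0.70, adjusted p = 0.014). Of 22 genes for collagen processing and crosslinking, 1 rose (*Crtap*, a partner of prolyl 3-hydroxylase, 1.07, adjusted p = 0.0386) and 0 fell (6 and 0 with library type), the call of *Crtap* being lost without T6-1, T6-3, T9-1, or T9-2 (adjusted p between 0.067 and 0.197). *Lox*, the crosslinking enzyme lysyl oxidase, was at 815, 977, and 863 CPM at T6 and at 1398, 1434, and 1417 CPM at T9. Its plates do not overlap, yet the fit gave 0.91 ± 0.30 (adjusted p = 0.151, with library type 0.68, adjusted p = 0.011). Of 15 basement membrane genes, 0 rose and 0 fell (median 0.51), and with library type 6 rose (*Col4a1*, *Col4a2*, *Col4a5*, *Lamb1*, *Lamb2*, and *Sparc*) and 0 fell, *Sparc* being at 5196, 2542, and 4800 CPM at T6 and at 6032, 5196, and 10167 CPM at T9 (1.01 ± 0.24, adjusted p = 0.0538, with library type 1.17, adjusted p = 0.0001). Of 26 matrix proteases and inhibitors, 1 rose and 0 fell (4 and 2 with library type), the one being the secreted serine protease *Htra3* (37.4, 22.0, and 35.2 CPM at T6 and 109, 80.6, and 113 CPM at T9, 1.95 ± 0.32, adjusted p = 0.00941), whose call was lost without T9-1 (adjusted p = 0.066). *Mmp2*, a gelatinase with a high level, gave 0.38 (adjusted p = 0.346).

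**Figure D3:**
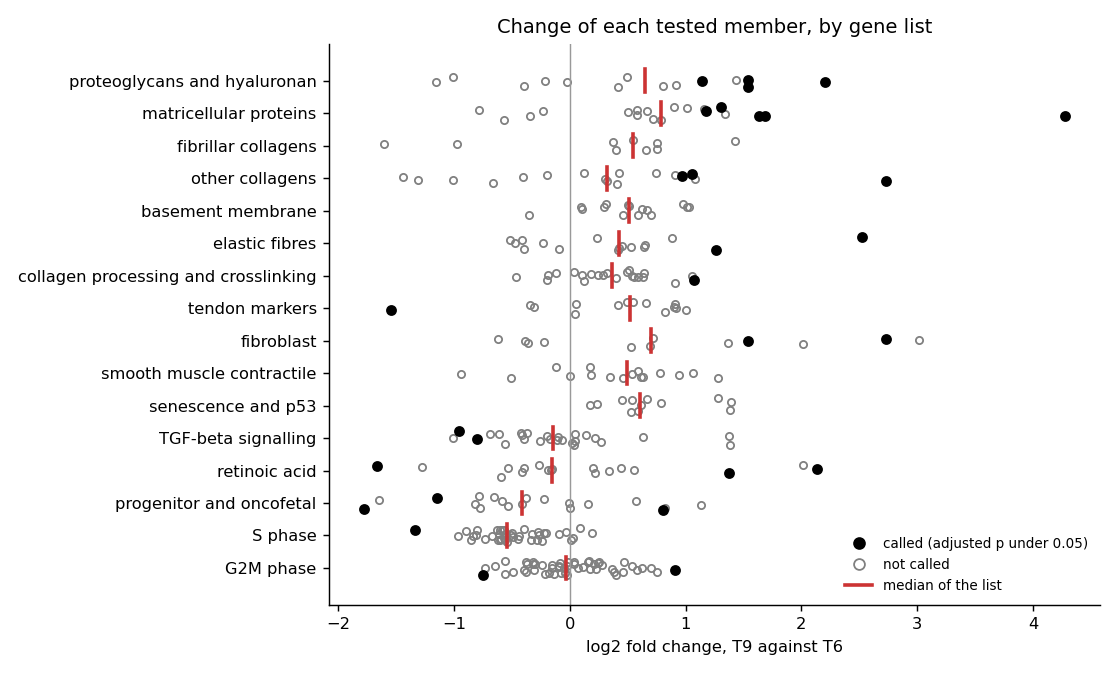
Log2 fold change from T6 to T9 (x axis) of each tested member of 16 gene lists (rows), filled where the adjusted p was under 0.05 and open otherwise, with a red line at the median of each list. The medians run from -0.54 (S phase) to 0.79 (matricellular proteins), against -0.01 for all genes tested.

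The regulatory sequences of the genes that moved were looked at for the letters bound by factors of the pathway. The windows were those of RefSeq in GRCm38.p6, from 250 bases before to 50 after a start, which 97 of the 125 genes that rose, 74 of the 92 that fell, and 9463 of the 13372 tested had. The E-box letters CANNTG, which bHLH proteins such as Scx bind, were in windows of 73.2% of the genes that rose, 66.2% of those that fell, 66.1% of those tested, and 75.0% of all genes with a window. The Smad letters CAGAC, on either strand, were in 58.8%, 52.7%, 52.1%, and 53.2%, and the TEAD letters GGAATG, on either strand, in 13.4%, 9.46%, 14.1%, and 16.6%. The shares in the genes that moved were near those of all genes. The 250 bases before the start are printed for *Ogn* (chr13:49607765-49608014, plus strand), the proteoglycan with the largest rise, and for *Prokr2* (chr2:132385448-132385697, minus strand), which fell the most among the named genes, each 5′ to 3′ on the gene's strand with every match of these letters in capitals.
Ogn: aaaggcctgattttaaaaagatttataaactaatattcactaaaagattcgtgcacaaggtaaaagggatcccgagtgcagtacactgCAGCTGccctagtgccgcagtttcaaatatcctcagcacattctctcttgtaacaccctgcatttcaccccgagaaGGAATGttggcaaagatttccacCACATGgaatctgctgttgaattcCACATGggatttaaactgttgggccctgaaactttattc
Prokr2: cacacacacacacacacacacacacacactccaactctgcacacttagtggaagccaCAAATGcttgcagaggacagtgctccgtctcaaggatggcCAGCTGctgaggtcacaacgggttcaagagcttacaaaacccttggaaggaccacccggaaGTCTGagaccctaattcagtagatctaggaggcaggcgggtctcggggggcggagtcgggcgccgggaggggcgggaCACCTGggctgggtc
The stretch of *Ogn* holds 3 E-box matches, 0 of CAGAC, and 1 of GGAATG, and that of *Prokr2* 3, 1, and 0. A match is a description of the letters and not a bound site.

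A pair of negative regulators of the TGF-β pathway fell, while its ligands and receptors did not pass the test. Of 26 genes tested, *Pmepa1* and *Skil* fell and 0 rose (median -0.14, and 2 higher and 4 lower with library type). *Pmepa1*, which holds Smads away from the receptor, was at 551, 290, and 534 CPM at T6 and at 141, 162, and 307 CPM at T9. *Skil*, a nuclear repressor of Smad targets, was at 290, 182, and 271 CPM at T6 and at 89.9, 102, and 175 CPM at T9. T9-3 was the highest plate of T9 in both, above T6-2 for *Pmepa1* and just below it for *Skil*. The log2 fold changes were -0.95 ± 0.20 for *Pmepa1* (adjusted p = 0.0312, with library type -0.82, adjusted p = 0.00055) and -0.80 ± 0.18 for *Skil* (adjusted p = 0.0448, with library type -0.75, adjusted p = 0.0063). Both calls were lost without T6-1, T6-3, T9-1, or T9-2, with adjusted p between 0.135 and 0.21. The ligand *Tgfb2* was at 147, 55.7, and 156 CPM at T6 and at 44.0, 53.3, and 111 CPM at T9 (-0.56, adjusted p = 0.346), and *Tgfb3* gave -0.17 (adjusted p = 0.63).

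A few extracellular regulators of other pathways rose. In the retinoic acid list (18 tested), *Rbp4* and *Adh1* rose and *Stra6* fell (2 and 2 with library type). *Rbp4*, the retinol carrier, was at 13.1, 7.95, and 14.5 CPM at T6 and at 40.5, 33.4, and 59.7 CPM at T9 (2.14 ± 0.36, adjusted p = 0.0114). *Stra6*, a receptor for that carrier, was at 23.5, 26.1, and 27.6 CPM at T6 and at 6.79, 5.46, and 8.62 CPM at T9 (-1.66 ± 0.23, adjusted p = 0.00322). *Adh1*, an alcohol dehydrogenase that oxidizes retinol, was at 53.5, 76.0, and 75.4 CPM at T6 and at 146, 162, and 146 CPM at T9 (1.38 ± 0.32, adjusted p = 0.0495). The time points did not overlap in any of the 3 genes. *Stra6* was called whichever plate was left out, *Rbp4* lost its call without T6-1 or T9-1 (adjusted p = 0.0594 and 0.0683), and *Adh1* without T6-1, T6-3, T9-1, or T9-2 (adjusted p between 0.163 and 0.21). *Aldh1a2*, the enzyme that makes retinoic acid, was at 65.3, 63.3, and 74.2 CPM at T6 and at 31.8, 24.1, and 69.3 CPM at T9 (-0.53, adjusted p = 0.351).

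In the Wnt list (26 tested), the R-spondin *Rspo3* (74.5, 50.9, and 62.8 CPM at T6 and 88.8, 79.6, and 163 CPM at T9, 1.02 ± 0.20, adjusted p = 0.0209) and the secreted frizzled-related protein *Sfrp2* (111, 95.8, and 112 CPM at T6 and 150, 166, and 183 CPM at T9, 0.89 ± 0.17, adjusted p = 0.0218) rose and 0 fell (3 and 0 with library type), while *Wnt5a* gave 0.49 (adjusted p = 0.263). The calls were lost without T6-1, T6-3, or T9-1 for both and also without T9-2 for *Sfrp2* (adjusted p between 0.0749 and 0.11). Of 23 genes of BMP and GDF signalling, 1 rose (3 with library type), the ligand *Gdf6* (3.58, 4.45, and 2.62 CPM at T6 and 6.52, 12.5, and 20.2 CPM at T9, 2.04 ± 0.45, adjusted p = 0.0405), a call that was lost without each plate other than T6-2 (adjusted p between 0.0532 and 0.189). The BMP targets *Id1* and *Id3* gave 0.36 each (adjusted p = 0.386 and 0.307). Of 14 FGF genes, 1 fell (with library type 2 rose and 1 fell), the feedback phosphatase *Dusp6* (47.6, 32.1, and 41.2 CPM at T6 and 17.7, 18.6, and 23.9 CPM at T9, -0.76 ± 0.18, adjusted p = 0.0495), with a call lost without each plate other than T6-2 (adjusted p between 0.0551 and 0.209). Of 10 genes of the IGF axis, 1 rose (with library type 2 rose and 1 fell), *Igfbp7*, a secreted IGF-binding protein (9.73, 11.1, and 10.2 CPM at T6 and 50.5, 63.6, and 69.3 CPM at T9, 2.79 ± 0.40, adjusted p = 0.00387), which was called whichever plate was left out. *Igfbp7* shares exon bases with *Polr2b* on the opposite strand, which was at 34.2 CPM on average, above the level of *Igfbp7* at T6. Of 8 hedgehog genes 0 rose and 0 fell (0 and 2 with library type), and *Gas1*, a co-receptor with a high level, gave -0.54 (adjusted p = 0.143, with library type -0.59, adjusted p = 0.015).

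The remaining genes with the largest rise have varied roles. *Itgbl1*, a secreted protein with integrin β-like repeats, was at 1.54, 1.59, and 1.67 CPM at T6 and at 18.5, 22.5, and 22.6 CPM at T9 (3.96 ± 0.39, adjusted p = 0.00189, with library type 3.82, adjusted p = 0.00011). *Cav1*, the coat protein of caveolae, was at 12.5, 15.6, and 17.6 CPM at T6 and at 76.6, 75.8, and 73.3 CPM at T9 (2.56 ± 0.31, adjusted p = 0.00167, with library type 2.33, adjusted p = 7.3e-06). The 3 plates of a time point were within a narrow range in both, and both genes were called whichever plate was left out. The same held for *Lurap1l* (2.52 ± 0.34, adjusted p = 0.00287) and *2610528A11Rik* (3.06 ± 0.31, adjusted p = 0.000363). *Car9*, a carbonic anhydrase induced by hypoxia, was at 3.58, 1.27, and 8.33 CPM at T6 and at 24.2, 12.2, and 36.5 CPM at T9 (2.66 ± 0.49, adjusted p = 0.0164), with a lost call without T6-1 (adjusted p = 0.0988) or T9-1 (adjusted p = 0.0941). It was the called member of 23 genes of glycolysis and hypoxia, of which 6 rose with library type (*Gpi1*, *Pfkp*, *Aldoa*, *Ero1l*, *Car9*, and *Adm*) and 0 fell. *C1s1*, a serine protease of complement (2.63 ± 0.47, adjusted p = 0.0146), *Fabp4*, a fatty acid binding protein of adipocytes (2.89 ± 0.54, adjusted p = 0.0224), and *Serpina3n*, a serine protease inhibitor (2.81 ± 0.58, adjusted p = 0.0463), also rose in all plates of T9. Each lost its call without T6-1, T6-3, or T9-1 (adjusted p between 0.0502 and 0.224), and *C1s1* and *Fabp4* also without T9-2 (adjusted p = 0.0526 and 0.0822).

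Some further genes among the 31 called whichever plate was left out were chosen for naming after their values were seen. *Pdpn* (podoplanin, a membrane glycoprotein of stromal cells) was at 30.7, 27.0, and 38.5 CPM at T6 and at 111, 98.0, and 100 CPM at T9 (1.95 ± 0.19, adjusted p = 0.00022). *Serping1*, the inhibitor of complement C1 proteases, was at 28.2, 31.2, and 30.0 CPM at T6 and at 72.5, 90.2, and 92.5 CPM at T9 (1.75 ± 0.21, adjusted p = 0.00174). *Txnip*, which binds thioredoxin, was at 215, 246, and 215 CPM at T6 and at 639, 516, and 775 CPM at T9 (1.72 ± 0.22, adjusted p = 0.00189). In each of these, the plates of T9 lay well above the narrow range of T6. *Vegfd*, a vascular growth factor, gave 2.44 ± 0.33 (adjusted p = 0.00287).

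*Prokr2*, *St8sia2*, and *Cxxc4* were the called genes with the largest falls among those that the naming rule gave. *Prokr2*, the receptor for prokineticins, was at 65.3, 54.4, and 69.5 CPM at T6 and at 4.89, 2.25, and 6.63 CPM at T9. It fell by 3.54 on the log2 scale (SE 0.29, adjusted p = 7.53e-05, with library type -3.57, adjusted p = 8.6e-07). *St8sia2*, a polysialyltransferase of developing tissue, was at 36.3, 18.1, and 40.7 CPM at T6 and at 4.07, 3.53, and 2.98 CPM at T9 (-2.86 ± 0.36, adjusted p = 0.00189). *Tril*, a modulator of Toll-like receptor signalling, was at 158, 100, and 146 CPM at T6 and at 16.8, 29.2, and 52.4 CPM at T9 (-1.85 ± 0.24, adjusted p = 0.00204). Every plate of T9 was below every plate of T6 in these 3 genes, and *St8sia2*, *Prokr2*, *Tril*, *Cxxc4*, an inhibitor of Wnt signalling (-2.07 ± 0.31, adjusted p = 0.00511), and *Adgra1*, an adhesion GPCR (-1.99 ± 0.30, adjusted p = 0.00513), were called whichever plate was left out. In the fit on only the 6 plates *Cxxc4* was not called (adjusted p = 0.0604). *Ptchd4* (-2.06 ± 0.34, adjusted p = 0.00941), *Kif26b*, a kinesin family member (-1.93 ± 0.33, adjusted p = 0.0121), and *Nefl*, a neurofilament chain (-1.68 ± 0.31, adjusted p = 0.0159), lost their calls without T9-1, the first 2 also without T6-1, and the last 2 also without T6-3 (adjusted p between 0.0531 and 0.101). *Ncald* (-1.82, adjusted p = 0.0373) and *Cplx2* (-1.59, adjusted p = 0.045), a calcium sensor and a synaptic protein, lost theirs without T6-1, T6-3, T9-1, or T9-2 (adjusted p between 0.101 and 0.242). *Syt7*, a calcium sensor of exocytosis that was named after its values were seen, fell by 2.57 (SE 0.36, adjusted p = 0.00338).

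Progenitor genes fell in part. *Hmga2*, a chromatin protein of embryonic cells, was at 205, 138, and 216 CPM at T6 and at 32.9, 42.1, and 65.7 CPM at T9 (-1.77 ± 0.21, adjusted p = 0.00167, with library type -1.72, adjusted p = 1.6e-05), and was called whichever plate was left out. *Sox11*, a transcription factor of progenitors, was at 279, 135, and 236 CPM at T6 and at 54.6, 56.2, and 147 CPM at T9. T9-3 lay above T6-2, so that the time points overlapped, and the change of -1.14 ± 0.26 (adjusted p = 0.0421, with library type -0.99, adjusted p = 0.00073) was not called without T6-1, T6-3, T9-1, or T9-2 (adjusted p between 0.161 and 0.204). *Plagl1*, a zinc finger protein of the same list, rose by 0.80 (adjusted p = 0.043), with overlapping plates and a call that was lost without T6-1, T6-3, or T9-1 (adjusted p between 0.154 and 0.193). The list of 19 progenitor and oncofetal genes thus held 2 that fell and 1 that rose, with a median of -0.41 (5 and 2 with library type). *Sox9*, a factor of cartilage and of tendon attachment progenitors, was at 189, 119, and 167 CPM at T6 and at 70.1, 54.0, and 122 CPM at T9 (-0.74 ± 0.20, adjusted p = 0.0865, with library type -0.69, adjusted p = 0.023). Of 33 limb and somite factors, 1 fell, *Foxp1* (-0.97, adjusted p = 0.0444, with overlapping plates, and an adjusted p between 0.163 and 0.182 without T6-1, T6-3, T9-1, or T9-2), and 0 rose (4 and 3 with library type), *Prrx1* giving 0.25 (adjusted p = 0.505). Of 32 Hox genes 0 rose and 0 fell (median -0.27, and 1 rose with library type).

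Most S phase genes were lower at T9, though few passed the test. Of 41 tested, 1 fell (*Exo1*, a DNA repair exonuclease, -1.33 ± 0.26, adjusted p = 0.0214) and 0 rose, whereas with library type 11 fell. In 37 of the 41 the log2 fold change was negative, against 6838 of all 13372 genes tested, with a median of -0.54 against -0.01. In 18 of the 41 the plates of T9 all lay below those of T6, against 1453 of the 13372. *Nasp*, a histone chaperone, was at 255, 147, and 229 CPM at T6 and at 89.9, 101, and 143 CPM at T9 (-0.67, adjusted p = 0.0547), and the helicase subunit *Mcm6* gave -0.60 (adjusted p = 0.0988). Of 52 G2M phase genes, *Ckap2*, a spindle protein, rose (0.91, adjusted p = 0.0494) and *Cbx5*, a heterochromatin protein, fell (-0.75, adjusted p = 0.0392), and the median was -0.03 (2 rose and 1 fell with library type). The calls of *Exo1*, *Ckap2*, and *Cbx5* were lost without T6-1, T6-3, or T9-1 (adjusted p between 0.0764 and 0.236), those of *Exo1* and *Cbx5* also without T9-2 (adjusted p = 0.0503 and 0.144), and that of *Ckap2* also without T6-2 (adjusted p = 0.0559). Dividing cells, with UMIs of at least 3 of 8 mitotic genes, made up 31.4%, 16.1%, and 26.4% of T6-1, T6-2, and T6-3 and 16.2%, 12.9%, and 13.8% of T9-1, T9-2, and T9-3. T6-2 lay just below T9-1. The difference of the means was -10.3 percentage points, and -3.17 with every cell thinned to 3000 UMIs. It was -15.1 in the plates with the low mitochondrial share and -1.60 in the others. T6-1 and T6-3 had the most detected genes per cell (medians 3406 and 3403), and the share depends on that depth. Without dividing cells, 129 of the 215 genes that could be tested were still called, and all 215 kept their sign.

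Several lists of other cell types or of cell state had few or no calls, while the fibroblast list was above the background of all genes. Of 16 smooth muscle contractile genes 0 rose and 0 fell (2 and 0 with library type), *Acta2* being at 2058, 1816, and 2185 CPM at T6 and at 2436, 1809, and 2844 CPM at T9 (0.46, adjusted p = 0.396), and *Tagln* at 327, 216, and 239 CPM and at 400, 433, and 548 CPM (1.06 ± 0.25, adjusted p = 0.0538). Among 12 fibroblast genes, *Col15a1* and *Lum* rose and 0 fell (median 0.71, 5 and 0 with library type), and *Vim* gave 0.72 (adjusted p = 0.183). Over all genes tested, 0.935% rose, and 3.34% with library type. In 6 of the 12 the plates of T9 all lay above those of T6, against 649 of all 13372 genes tested. Of 7 adipocyte genes, 1 rose (*Fabp4*, and 2 with library type), and of 11 striated muscle, 11 cartilage, and 4 bone genes tested none rose or fell. Summed over these last 3 lists, with members that were not tested, the levels were 53.5 to 268, 191 to 314, and 46.9 to 68.6 CPM at T6. At T9 they were 70.0 to 348, 113 to 268, and 37.1 to 104 CPM. With library type, 1 striated muscle gene rose, 1 cartilage gene (*Sox9*) fell, and 0 bone genes were called. The 12 senescence and p53 genes tested all had a positive log2 fold change (median 0.60), against 6528 of all 13372 genes tested. Of the 12, 0 were called, and 4 were called with library type, among them the cell cycle inhibitor *Cdkn1a* (0.79, adjusted p = 0.173, with library type 0.96, adjusted p = 0.0066) and *Mdm2* (0.59, adjusted p = 0.0976, with library type 0.49, adjusted p = 0.033). *Igfbp3* of the same list gave 0.67 (adjusted p = 0.185). Stress genes were called singly: *Atf3* of 20 immediate early genes (1.63, adjusted p = 0.0294) and *Hspb1* (1.67, adjusted p = 0.0174) and *Hspa1b* (1.30, adjusted p = 0.0233) of 22 heat shock genes, with 2 and 5 that rose in these lists with library type and 0 that fell. *Hspa1b* and *Hspa1a* are near-identical, so that their counts are uncertain. The calls of all 3 were lost without T9-1 (adjusted p between 0.0924 and 0.14), those of *Atf3* and *Hspb1* also without T6-3 or T9-2 (adjusted p between 0.0704 and 0.154), and that of *Hspa1b* also without T6-1 (adjusted p = 0.108). *Cxcl14* (2.48, adjusted p = 0.0194, and between 0.0503 and 0.157 without T6-1, T6-3, T9-1, or T9-2) was the called member of 11 cytokines and chemokines (3 rose with library type), and *Itgbl1* that of 22 integrin and focal adhesion genes (2 rose and 1 fell with library type), where *Itgb1* gave 0.29 (adjusted p = 0.392). In the interferon (18), mitochondrially encoded (13), parietal endoderm (14), epithelial (8), neural (4), endothelial (3), and blood and immune (1) lists 0 genes were called. With library type, *Stmn2* and *Map2* of the neural list fell, the list summing to between 418 and 467 CPM at T6 and between 243 and 269 CPM at T9, 1 endothelial gene (*Erg*) fell, *Col4a1*, *Col4a2*, and *Sparc* of the parietal endoderm list rose, and 2 interferon genes rose and 1 fell. The part of such cells in the results was not tested.

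Genes of rare other cells differed between plates rather than time points. *Sox2* was at 26.1, 0.636, and 0 CPM at T6 and at 56.5, 71.9, and 0 CPM at T9, and *Utf1* at 40.4, 4.45, and 2.62 CPM and at 52.1, 57.5, and 0 CPM. *Tdgf1* was at 25.3, 1.27, and 0.476 CPM at T6 and at 13.3, 36.9, and 0 CPM at T9. These pluripotency genes were high in T6-1, T9-1, and T9-2 and low in the other plates, and their log2 fold changes of 1.29 to 2.70 were not called. *Srgn* (108, 46.1, and 133 CPM at T6 and 127, 176, and 38.1 CPM at T9) and *Tfpi* (48.6, 26.4, and 27.1 CPM and 55.4, 53.3, and 20.9 CPM), of the parietal endoderm list, were likewise not called (adjusted p = 0.635 and 0.409). The paper names both for a cluster that, in its words, appeared to be endothelial. Which cell type they mark here was not tested. Cells with UMIs of at least 3 pluripotent markers numbered 5, 1, and 1 in the plates of T6 and 5, 12, and 0 in those of T9. Without these cells and those with at least 6 parietal endoderm markers, a loose threshold that takes out between 2.08% and 23.0% of a plate, 183 of the 217 genes were called.

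Over the time course, most genes that rose from T6 to T9 were at their highest at T9, whereas those that fell had peaked at different times. Of the 125 genes that rose, 107 had their highest mean at T9, 55 rose at every step from T0, and 16 had been lowest at T6. Of the 92 that fell, 40 were highest at T0, 29 at T3, and 23 at T6, and 69 were lowest at T9. *Scx* went from a mean of 9.51 CPM at T0 to 734 CPM at T3 before it fell, and *Prokr2* from 0.984 to 68.8 CPM, with 4.59 CPM at T9. *Hmga2* fell at every step, from 1839 CPM at T0 and 414 CPM at T3. The steps share the plates of T6, and a rise or fall at the late step was what chose these genes.

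**Figure D4:**
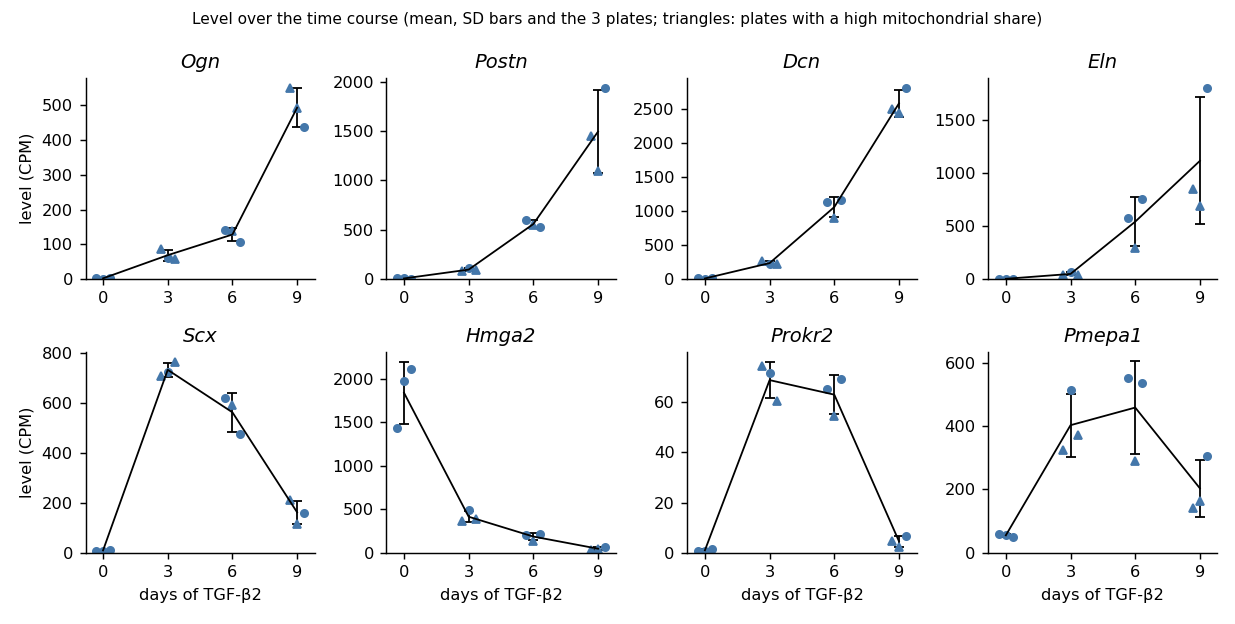
Level in CPM against days of TGF-β2 for 4 genes that rose (top) and 4 that fell (bottom) from T6 to T9, with the mean, SD bars, and the 3 plates of each time point, triangles being the plates with a high mitochondrial share. The genes that rose climb from near 0 at T0, *Scx*, *Prokr2*, and *Pmepa1* peak at T3 or T6, and *Hmga2* falls throughout.

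The share of cells with a UMI of *Scx* was lower at T9. It was 81.9%, 76.8%, and 78.6% in T6-1, T6-2, and T6-3 and 46.6%, 33.6%, and 36.7% in T9-1, T9-2, and T9-3. The difference of the means was -40.1 percentage points, and -36.3 with every cell thinned to 3000 UMIs, which left out 7 to 35 cells a plate. With 3 plates against 3, the exact two-sided permutation test has 20 splits and cannot give a p under 0.1, which is the value here (adjusted p = 0.157 over 11 shares). The plates were apart in the same way, with the same p of this exact test, for *Hmga2* (61.3%, 44.8%, and 61.1% at T6 and 17.0%, 21.3%, and 25.0% at T9), *Sox9* (47.1%, 29.9%, and 47.5% and 25.1%, 18.6%, and 27.6%), and *Aldh1a2* (23.3%, 19.01%, and 29.0% and 13.1%, 9.71%, and 16.4%), and upwards for *Mkx* (12.3%, 10.4%, and 12.3% and 22.5%, 14.4%, and 15.9%). After thinning, the plates of *Sox9* overlapped.

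The share of cells with *Tnmd* overlapped between the time points, while that of cells with *Tnmd* and no UMI of *Scx* did not. Cells with *Tnmd* made up 16.8%, 12.8%, and 8.88% at T6 and 19.4%, 11.8%, and 9.38% at T9 (exact permutation p = 0.9). Cells with *Tnmd* and without *Scx* were 0.524%, 0.521%, and 0.261% at T6 and 6.54%, 4.20%, and 3.13% at T9 (exact permutation p = 0.1), and the plates were apart after thinning too. Cells with both *Scx* and *Tnmd* were 16.2%, 12.2%, and 8.62% at T6 and 12.8%, 7.61%, and 6.25% at T9 (exact permutation p = 0.3). Cells with both *Scx* and *Sox9* were 41.1%, 25.0%, and 38.1% at T6 and 13.6%, 7.87%, and 12.2% at T9 (exact permutation p = 0.1). Free RNA can give UMIs in cells that do not express a gene. The 24 cells with pluripotent markers had a median of 20348 UMIs against 8279 in the other cells. Of the 24, 45.8% held a UMI of *Scx* (exact 95% interval 25.6 to 67.2%) and 20.8% one of *Tnmd* (7.13 to 42.2%). *Sox9* and *Hmga2* were each in 45.8% (25.6 to 67.2%), *Aldh1a2* in 12.5% (2.66 to 32.4%), and *Mkx* in 4.17% (0.105 to 21.1%). *Col1a1* and *Acta2* were each in 100% of the 24 and *Dcn* in 87.5%. Whether the 24 cells express these genes themselves was not tested, so that the intervals are not a measured background of free RNA. The share of *Scx* at T6 was above its interval, and that at T9 lay inside it in all 3 plates. The shares of *Tnmd*, *Sox9*, *Hmga2*, and *Aldh1a2* at both time points lay inside or below theirs, and so did those of *Mkx* except in T9-1 (22.5%). Since the 24 cells may express these genes and were deeper, the intervals cannot decide which shares reflect expression. No share, whether above, inside, or below its interval, is read as expression or as a difference in expression. Intervals cover counting error only.

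For the genes with large changes, the share of cells with a UMI moved in the direction of the level, with no test made of it. The share of cells with a UMI of *Ogn* went from 42.1%, 38.8%, and 39.9% at T6 to 74.1%, 65.1%, and 62.8% at T9, and that of *Ccn3* from 3.66%, 1.56%, and 2.87% to 21.5%, 15.0%, and 19.8%. The share with *Prokr2* went from 23.6%, 16.4%, and 25.6% to 2.88%, 1.05%, and 2.86%. In the 24 cells with pluripotent markers the shares were 20.8% for *Ogn* (exact 95% interval 7.13 to 42.2%), 16.7% for *Ccn3* (4.74 to 37.4%), and 4.17% for *Prokr2* (0.105 to 21.1%). Only *Ogn* at T9 and *Prokr2* in T6-1 and T6-3 lay above these intervals, which cannot decide what reflects expression, and none of these shares is read as expression. *Ogn* was lower in cells with a UMI of *Scx* than in cells without in 5 of the 6 plates, all but T9-2, whereas *Postn* was higher in cells with *Scx* in all 6 plates. The plates of T9 lay above those of T6 in both sets of cells for each gene. A UMI of *Scx* depends on depth, its share in T9-1 being 46.6% and, after thinning, 28.3%. The sets are thus not read as cells that express *Scx* and cells that do not. In cells with *Scx*, *Ogn* was at 138, 133, and 99.7 CPM at T6 and at 462, 527, and 368 CPM at T9, and in cells without at 147, 159, and 132 CPM and at 637, 476, and 485 CPM. *Postn* was at 651, 605, and 553 CPM at T6 and at 1826, 1751, and 2678 CPM at T9 in cells with *Scx*, and at 294, 316, and 392 CPM and at 1086, 769, and 1426 CPM in cells without.

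**Figure D5:**
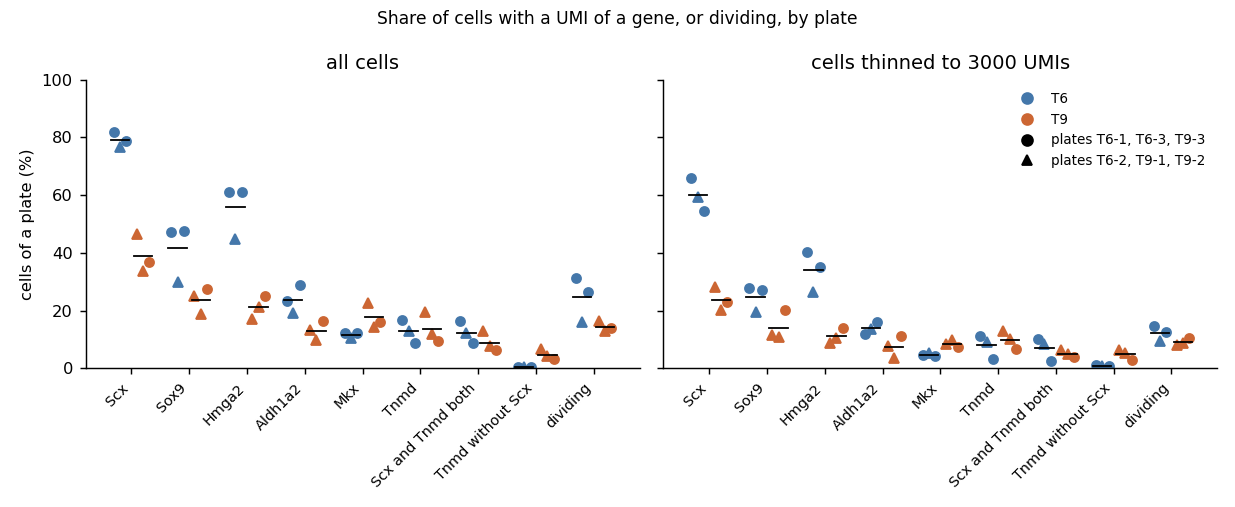
Share of the cells of a plate (y axis, %) with a UMI of a gene, of a pair of genes, or dividing, in all cells (left) and with every cell thinned to 3000 UMIs (right), with 1 point per plate, blue for T6 and orange for T9, and a line at the mean. *Scx* goes from 76.8 to 81.9% at T6 to 33.6 to 46.6% at T9 in all cells, and the time points overlap for *Tnmd* and for dividing cells.

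The genes that moved were then looked up in the bulk Achilles tendon of mice lacking *Scx*, which shared no sample with the culture. *Scx* itself was at 103 and 81.3 CPM (here of reads) in Scx_Wt and at 23.1 and 25.1 CPM in Scx_KO (log2 fold change -1.88 ± 0.17, n = 2 samples a group, edgeR, adjusted p = 0.000429). Of 14602 genes tested, 258 (1.77%) were higher and 302 (2.07%) lower in Scx_KO. Of the 125 genes that rose from T6 to T9, 119 were tested in tendon, 10 of them being higher in Scx_KO and 10 lower (8.40% each), which is 5.43% of the 184 genes higher and 4.85% of the 206 genes lower among those tested in both. Over all 11527 genes tested in both, the shares were 1.60% and 1.79%. Of the 92 genes that fell, 82 were tested, 3 of them being higher (3.66%, or 1.63% of the 184) and 6 lower (7.32%, or 2.91% of the 206). The genes that rose held as many genes higher as lower in Scx_KO.

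Of the matrix genes that rose in culture, some were higher in Scx_KO and *Thbs1* and *Spock3* were lower. *Eln* was at 1510 and 746 CPM in Scx_Wt and at 4635 and 6133 CPM in Scx_KO (2.32 ± 0.34, adjusted p = 0.00553). *Postn* was at 1129 and 665 CPM and at 2246 and 2976 CPM (1.60 ± 0.28, adjusted p = 0.0149). *Mfap5*, *Aspn*, and *Lum* were higher as well, by 1.40, 1.36, and 1.22 on the log2 scale (adjusted p = 0.00174, 0.0151, and 0.0208). *Ogn* (-0.59, adjusted p = 0.113), *Dcn* (0.07, adjusted p = 0.911), *Thbs2* (0.32, adjusted p = 0.449), and *Ccn3* (0.42, adjusted p = 0.412) did not pass the test. *Thbs1* was at 201 and 162 CPM in Scx_Wt and at 88.2 and 113 CPM in Scx_KO (-0.80 ± 0.18, adjusted p = 0.0416), and *Spock3*, a matrix proteoglycan that was among the genes that rose from T6 to T9, at 23.2 and 15.5 CPM and at 2.10 and 1.53 CPM (-3.36 ± 0.35, adjusted p = 0.000894). Of the other genes that rose in culture and were lower in Scx_KO, *Car9* was at 60.6 and 53.4 CPM in Scx_Wt and at 1.37 and 2.46 CPM in Scx_KO (-4.84 ± 0.28, adjusted p = 5.18e-05), *Fabp4* at 1838 and 867 CPM and at 529 and 297 CPM (-1.66 ± 0.35, adjusted p = 0.0323), and *Txnip* at 548 and 422 CPM and at 221 and 175 CPM (-1.24 ± 0.19, adjusted p = 0.00617). Among the genes that fell in culture, *Syt7* (-3.59 ± 0.31, adjusted p = 0.000304) and *Nkd2*, an inhibitor of Wnt signalling (-1.55 ± 0.25, adjusted p = 0.009), were lower in Scx_KO along with *Scx*, whereas *Pmepa1* (0.80 ± 0.16, adjusted p = 0.0298) was higher. The bulk genes named here, other than those of the naming rule, were chosen after their values were seen.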

How the data were processed

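Single cells were sequenced by CEL-Seq2, and bulk RNA of Achilles tendon as a separate data set. The authors used Trim Galore on the single-cell reads, HISAT2 2.2.1 for alignment to GRCm38, and counted UMIs per gene and well with featureCounts and UMI-tools 1.0.1, and they aligned the bulk reads with HISAT2 2.0.4 and counted them with featureCounts 1.5.0. The deposited values are counts in both tables, without normalization. Whether strand was used in counting is not given in the sources used here, and 48 of the 217 genes called share exon bases with another gene. Entries outside Ensembl (3, with 0.0642% of the UMIs) were left out.

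UMIs were summed per plate over wells with at least 200 genes. All 12 plates were fitted with edgeR 4.0.16 in R 4.3.3 (filterByExpr, TMM, quasi-likelihood test, Benjamini-Hochberg adjustment, threshold 0.05), with time point as the only term, and the bulk counts likewise. Log2 fold changes carry edgeR's standard error as derived from its test. DESeq2 1.42.0, limma 3.58.1, other filters, leaving out each plate, and library type as a term were alternatives. Shares used an exact permutation test and exact intervals in scipy 1.17.1. The fits were tested on simulated data. Plates held 3015418 to 4204037 UMIs and bulk samples 11188270 to 12398560 counts. No plates were duplicates: the chi-square per gene between plates of a time point was 4.23 and 4.93 within a library type and 46.6 to 53.4 across. The bulk pairs gave 36.8 and 21.9. The 384 well barcodes are shared by all plates by design. Named genes are the 12 largest changes in each direction among called genes that do not overlap, have 1 sign in both library types, and reach 20 CPM, the genes the paper names for its cells, and up to 5 members of each of 41 lists. The members, lists, and tests were chosen with earlier results of these data known. Genes and positions are those of GENCODE M21, which named 29538 of 29629 genes, and promoter windows are from RefSeq. *Comp*, *Bmp6*, *Gdf7*, *Snorc*, *Cfd*, *Lep*, and 5 other listed genes were not found in the table by name.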

Additional observations from a re-analysis of the deposited data

Results flagged for a closer look

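For 4 genes, the change from T6 to T9 differed between the library types, by the edgeR test of the difference itself at an adjusted p of 0.05, and 955 genes had an unadjusted p under 0.05. None of the 4 was called between T6 and T9. *Lama1*, a laminin chain, changed by -0.49 on the log2 scale in the plates with the low mitochondrial share and by 3.35 in the others, a difference of -3.86 (adjusted p = 0.0100), its level being 7.64 CPM in T6-2 and 57.0 to 119 CPM in the other 5 plates. *Sall4*, a zinc finger factor of pluripotent cells, changed by -1.60 and 2.27, a difference of -3.88 (adjusted p = 0.0257), with 16.1, 6.68, and 18.1 CPM at T6 and 23.1, 36.6, and 5.31 CPM at T9. *mt-Atp8*, a mitochondrially encoded subunit of ATP synthase, changed by -1.14 and 0.62, a difference of -1.77 (adjusted p = 0.0257), with 130, 419, and 150 CPM at T6 and 541, 637, and 60.0 CPM at T9. *Mylpf*, a myosin light chain of skeletal muscle, changed by -2.81 and 5.97, a difference of -8.82 (adjusted p = 0.0499), with 21.8, 0.636, and 8.56 CPM at T6 and 31.5, 46.6, and 1.99 CPM at T9. The arms of this test rest on T6-2 and T9-3, each a lone plate that is assumed to vary like the others. The groups of 2 or 3 samples were too small to be examined for single samples that stand apart.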

How the results depend on the processing

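Against 217 genes called, DESeq2 called 579, no filter on low counts 684, library type as a second term 813, only the 6 plates 45, and the 6 plates with library type 807. Within the plates with the low mitochondrial share 330 were called, and the mean of per-cell CPM gave 133. Without 1 plate the count ran from 35 (without T9-1) to 852 (without T9-3). The alternatives that combine library type with another choice were chosen after seeing the data: 629 genes without dividing cells, 959 without cells with pluripotent or parietal endoderm markers, 537 after thinning, and 428, 364, 410, 427, 615, and 531 without T6-1, T6-2, T6-3, T9-1, T9-2, and T9-3. Of the 64 named genes that were called, none changed sign in 30 settings. With the replicate number as a block, 113 genes were called. The deviations of same-numbered plates correlated at -0.27, 0.44, and 0.50, and not every plate correlated best with its own number. Plates of T6 and T9 of the same library type correlated at 0.36 to 0.50, and those of unlike type at -0.57 to -0.24. The sign followed library type, so that these values cannot show whether the numbers pair the plates.

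The difference between library types was called for 17 genes by DESeq2 and for 149 with no filter. In tendon, against 560 genes, no filter gave 1415 and the replicate block 1108, where same-numbered samples correlated at 0.0845. The share of cells with *Tnmd* (0.722 percentage points higher at T9) was -3.44 in the low mitochondrial plates and -2.20 to 2.79 without 1 plate, and that with *Acta2* was 4.64 in the high mitochondrial plates and -3.80 to 1.01 without 1 plate. Of 33 named genes that were not called, 7 changed sign. In the low mitochondrial plates *Aldh1a2* gave 0.074, *Srgn* -1.57, *Tfpi* -0.77, *Tdgf1* -8.62, *Utf1* -9.37, and *Sox2* -8.64, the last 3 being at 0 in T9-3, so that their values depend on the prior count. *Egr1* gave -0.0405 in the high mitochondrial plates, -0.23 with the mean of per-cell CPM, and -0.0107 to 0.11 without 1 plate, and with library type -0.0044 without cells with pluripotent or parietal endoderm markers and -0.0238, -0.0236, and -0.15 without T6-2, T6-3, or T9-3. *Tdgf1* ranged from -0.0097 to 4.60 without 1 plate. With library type, *Srgn* gave -1.56 without T6-2 and -0.0939 without T9-2, and *Utf1* -0.32 without T6-2. The cause was not tested for any of these. With 3 plates a group of unequal library type, differences that did not pass are not shown to be absent.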
